A study of Mus musculus with 6 samples.

Results

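The genes described here encode the enzymes and regulators of cholesterol and fatty acid synthesis, and were taken as a fixed list of 34 symbols. The list spans the mevalonate and isoprenoid steps, the steps from squalene to cholesterol, the SREBP system that controls them, the supply of acetyl-CoA, fatty acid synthesis, elongation and desaturation, and the phosphatidate phosphatase Lpin1. Of the 34 symbols, 33 had a row among the 23951 genes of the table, because Sc4mol is an older name of Msmo1. The test covered 32 of them, each above 1 FPKM in all 6 libraries, among 11379 genes that reached 1 FPKM in 2 or more libraries. Hmgcs1, the cytosolic HMG-CoA synthase, was listed at 0 in all 6 libraries and was not tested. In all, 7468 genes were listed at 0 in every library, so its 0 is not read as absence of the transcript.

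RNA was sequenced from 3 untreated mouse melanoma cell lines, with 2 libraries per line. B16-F1 is the parental line of low metastatic potential and came from a cell repository. B16-F1R2 is a variant recovered from a lymph node metastasis and was received from another laboratory, and B16-F1R2L is labelled as derived from a metastasis in the lung that itself arose from a lymph node metastasis. All were cultured in high-glucose DMEM with fetal bovine serum, and since the lines came from different sources, the line and its source cannot be told apart. The sources used here do not tell if separate cultures gave the 2 libraries of each line, so p-values measure only the spread between these libraries, which may be technical. Levels are FPKM, fragments per kilobase of transcript scaled for the depth of the library, so that levels of different genes can be compared per length. The sources used here do not state how the libraries were scaled. Differences are log2 fold changes of FPKM + 0.1, a scale that makes the change of low genes look smaller than it is, and were tested with limma with Benjamini-Hochberg adjustment over all 11379 genes and a threshold of 0.05.

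Depth was estimated at 12500000 to 14900000 reads per library, where 1 read on a transcript of 2000 bases is worth 0.0336 to 0.0401 FPKM. The 2 libraries of a line differed over the 32 genes by a median of 0.040 (B16-F1), 0.056 (B16-F1R2) and 0.082 (B16-F1R2L) on the log2 scale, and by at most 0.26. For 1 gene alone, the smallest p that an exact permutation of 2 libraries against 2 allows is 0.333, so the tests rest on the spread that limma pools over genes and lines.

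Cholesterol is built from acetyl-CoA through mevalonate, the isoprenoid farnesyl diphosphate, squalene and lanosterol, and fatty acids are built from the same acetyl-CoA by acetyl-CoA carboxylase and fatty acid synthase. Both routes are transcribed under the SREBP factors: SREBP2, from Srebf2, acts mainly on sterol genes and SREBP1, from Srebf1, on fatty acid genes. When sterols are scarce, the escort protein SCAP carries SREBP from the endoplasmic reticulum to the Golgi for cleavage, and when sterols are plentiful the INSIG proteins hold it back. Serum in the culture medium supplies cholesterol and fatty acids as well.

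SREBP factors bind promoters together with NF-Y, which recognises the CCAAT box, and the sequences are shown for the 5 sterol genes with the largest falls in B16-F1R2 among those with a promoter, and for Hmgcs1, the single gene whose window held the sterol regulatory element searched. They are the RefSeq promoters on GRCm38.p6, cut to the 200 bases before the start site and read 5′ to 3′ in the direction of transcription, with the CCAAT box on either strand (CCAAT or ATTGG) in capitals. In Hmgcs1 the capitals also mark the match to TCACNCCAC. The windows lie at chr19:6067851-6068050 on the minus strand for Tm7sf2, chr8:122443423-122443622 on the minus strand for Mvd, chrX:72918321-72918520 on the plus strand for Nsdhl, chr8:64733579-64733778 on the minus strand for Msmo1, chr5:4104698-4104897 on the minus strand for Cyp51 and chr13:119690151-119690350 on the plus strand for Hmgcs1.
Tm7sf2: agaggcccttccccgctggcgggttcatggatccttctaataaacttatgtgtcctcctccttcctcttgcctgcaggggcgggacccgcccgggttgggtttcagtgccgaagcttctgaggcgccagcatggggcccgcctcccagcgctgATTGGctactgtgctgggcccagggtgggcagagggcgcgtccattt
Mvd: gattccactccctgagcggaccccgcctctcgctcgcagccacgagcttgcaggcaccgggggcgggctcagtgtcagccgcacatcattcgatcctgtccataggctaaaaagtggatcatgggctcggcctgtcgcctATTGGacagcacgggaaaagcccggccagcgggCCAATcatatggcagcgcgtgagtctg
Nsdhl: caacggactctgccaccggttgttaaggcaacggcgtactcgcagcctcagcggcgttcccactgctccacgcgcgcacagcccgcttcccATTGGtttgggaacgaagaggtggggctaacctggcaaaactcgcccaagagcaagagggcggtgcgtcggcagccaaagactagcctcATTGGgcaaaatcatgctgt
Msmo1: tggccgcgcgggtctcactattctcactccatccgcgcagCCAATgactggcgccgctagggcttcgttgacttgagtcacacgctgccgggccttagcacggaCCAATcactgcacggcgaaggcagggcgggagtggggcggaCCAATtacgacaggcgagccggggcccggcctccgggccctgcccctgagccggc
Cyp51: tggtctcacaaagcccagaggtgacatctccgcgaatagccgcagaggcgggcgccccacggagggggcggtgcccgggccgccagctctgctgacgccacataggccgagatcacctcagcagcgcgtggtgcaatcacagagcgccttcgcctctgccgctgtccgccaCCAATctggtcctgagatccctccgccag
Hmgcs1: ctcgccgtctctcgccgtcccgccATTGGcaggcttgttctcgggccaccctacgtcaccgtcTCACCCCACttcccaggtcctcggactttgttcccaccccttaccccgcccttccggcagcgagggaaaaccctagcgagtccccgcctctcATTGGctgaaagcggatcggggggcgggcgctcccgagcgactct

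Promoters of 300 bases (250 before and 50 after the start) were found for 26 of the 33 genes. Fdps, Fdft1, Sqle, Stard4, Fads1, Scd1 and Scd2 were not matched. The CCAAT box, searched on both strands, was present in 21 of the 26 (80.8%), against 43.5% of 8614 tested genes with a promoter and 37.4% of all 32851 promoters. Msmo1 held 3 such boxes in the stretch shown, and 11 of the 26 genes held 2 or more, against 17.2% of the tested genes. The GC box GGGCGG was present in 20 of 26 (76.9%), close to the 70.6% of tested genes, and the E-box CACGTG in 6 of 26 (23.1%, against 12.2%). The motif TCACNCCAC, found in 1.39% of tested genes, was present in Hmgcs1 alone. These matches are descriptions of the letters in the window and not of binding.

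B16-F1R2 was first compared with B16-F1, which asks how the line from the lymph node metastasis differs from the parental one. Of the 32 genes tested, 27 were lower in B16-F1R2, against 27.2% of all genes tested, 1 was higher (Srebf1), against 28.2%, and 4 did not pass the test (Pmvk, Scap, Acss2 and Elovl5). A fall of at least 0.5 on the log2 scale was found for 16 of the 32, against 10.6% of all genes, and a fall of at least 1 for 7, against 2.88%. Both libraries of B16-F1R2 lay below both of B16-F1 for 30 of the 32 genes, where 39.7% of all genes did so, and above them for 1, where 40.3% did. The median log2 fold change of the 32 was -0.49, while that of all genes tested was 0.0046. There were 16 alternatives, which are the other settings and left-out libraries apart from the minimum change of 1 given above. Of the 27 lower genes, 24 stayed past the threshold under each of the 16, and Lpin1 under the 15 that tested it. The others were Acaca, lost in 8, and Fads2, lost in 1.

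**Figure D1:**
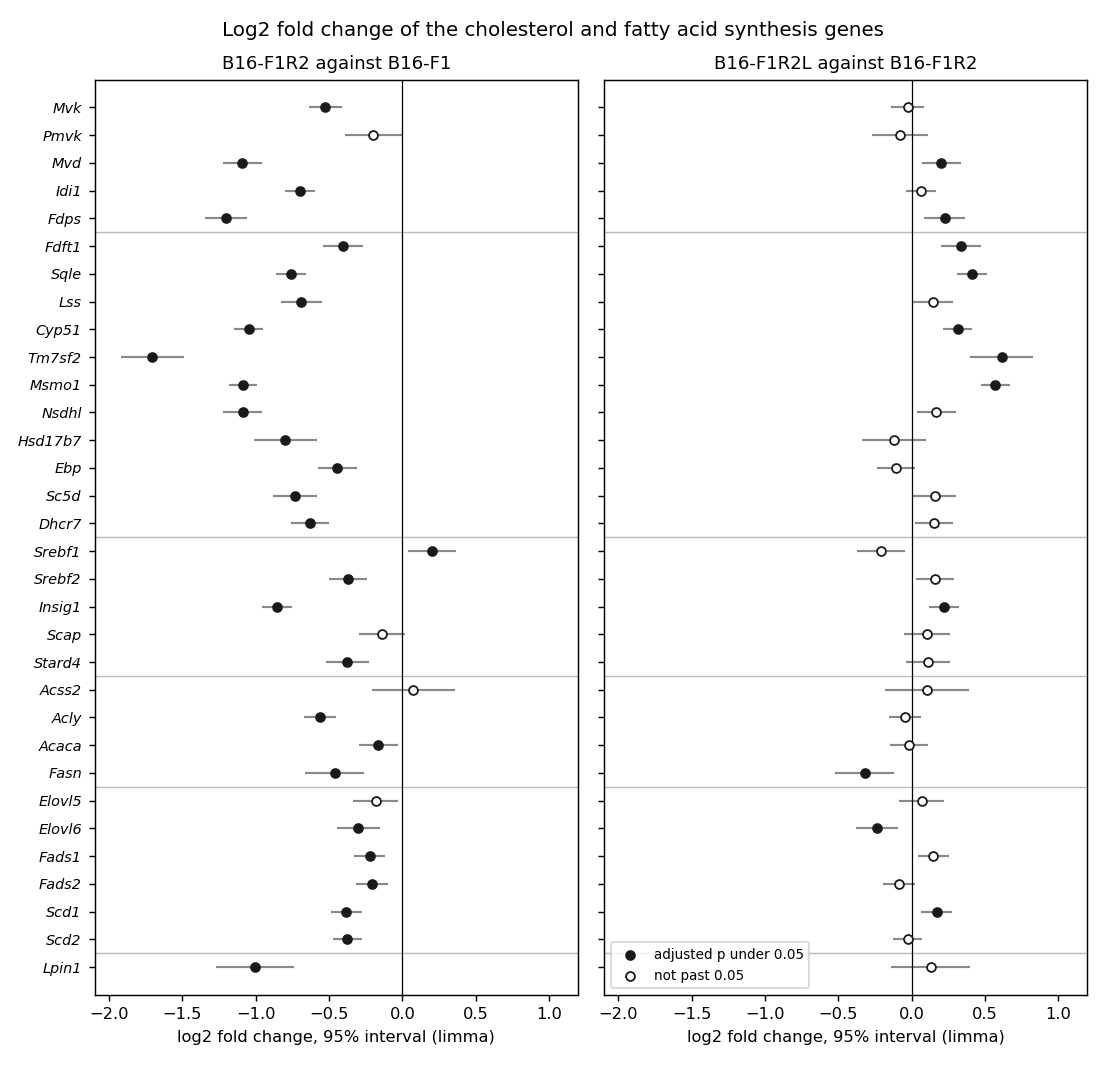
Log2 fold changes with 95% intervals for the 32 tested genes, with grey rules between roles, for B16-F1R2 against B16-F1 on the left and B16-F1R2L against B16-F1R2 on the right. Filled points passed the limma test. On the left, 30 of the 32 points lie below 0, with Tm7sf2 the lowest at -1.71 and Srebf1 at 0.20.

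The mevalonate and isoprenoid steps were lower in B16-F1R2 for 4 of 5 tested genes, against 27.2% of all genes. The 5 had a median of -0.70 and a range of -1.20 to -0.20. Fdps, farnesyl diphosphate synthase, which makes the isoprenoid from which sterols branch off (chr3:88897514-88905881, minus strand, NCBIM37), was listed at 384 and 383 FPKM in B16-F1, at 174 and 159 in B16-F1R2 and at 202 and 188 in B16-F1R2L. It was the most abundant sterol enzyme per length in B16-F1, and both B16-F1R2 libraries lay below the B16-F1R2L libraries. Its log2 fold change in B16-F1R2 was -1.20 (SE 0.058, adjusted p = 1.7e-05). Of its stretches of 50 bases, 63.2% also occur elsewhere in the genome, so reads may have been shared with pseudogene copies. Mvd, mevalonate diphosphate decarboxylase (chr8:124957496-124967322, minus strand), stood at 42.0 and 42.7 FPKM in B16-F1, at 20.2 and 19.4 in B16-F1R2 and at 23.6 and 22.0 in B16-F1R2L. The lines did not overlap, and B16-F1R2 stood at 46.8% of the B16-F1 mean, with a log2 fold change of -1.09 (SE 0.055, adjusted p = 2.0e-05).

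Idi1, the isopentenyl diphosphate isomerase, stood at 46.9 and 47.9 FPKM in B16-F1, at 29.2 and 29.2 in B16-F1R2 and at 30.2 and 31.0 in B16-F1R2L. Its level was lowest in B16-F1R2, at a log2 fold change of -0.70 (SE 0.042, adjusted p = 4.3e-05), but 84.6% of its stretches occur elsewhere, including a pseudogene. Mvk, mevalonate kinase, stood at 31.5 and 31.6 FPKM in B16-F1, at 22.1 and 21.7 in B16-F1R2 and at 21.9 and 21.0 in B16-F1R2L. B16-F1 stood above both other lines, which lay close together, and the log2 fold change in B16-F1R2 was -0.53 (SE 0.047, adjusted p = 0.00020). Pmvk, the phosphomevalonate kinase, changed by -0.20 and did not pass the test (adjusted p = 0.076).

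**Figure D2:**
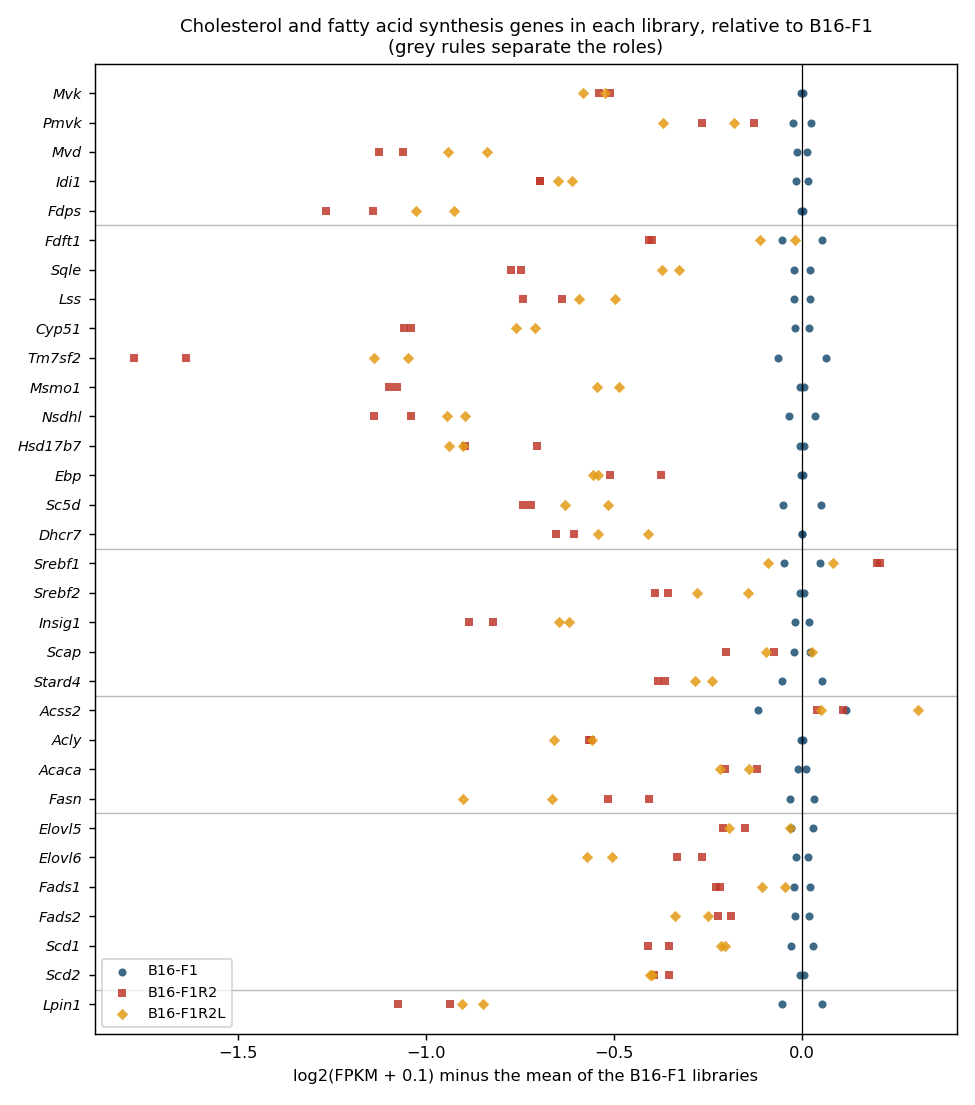
Level of the 32 tested genes in each of the 6 libraries, as log2(FPKM + 0.1) minus the mean of the B16-F1 libraries, 1 row per gene and 1 point per library, with grey rules between roles. B16-F1R2 (squares) lies left of B16-F1 (circles) for 30 genes, and B16-F1R2L (diamonds) lies between them for 17.

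All 11 genes from squalene to cholesterol were lower in B16-F1R2, against 27.2% of all genes. The 11 had a median of -0.76 and a range of -1.71 to -0.40. Tm7sf2, a sterol C14-reductase (chr19:6062821-6068373, minus strand), stood at 11.7 and 12.8 FPKM in B16-F1, at 3.87 and 3.51 in B16-F1R2 and at 5.88 and 5.52 in B16-F1R2L. It fell the most of the 32 genes, to 30.1% of the B16-F1 mean (log2 fold change -1.71, SE 0.089, adjusted p = 2.3e-05). Its exons overlap on the same strand with those of the gene 1110014N23Rik, so part of its reads may belong to that gene.

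Msmo1, the methylsterol monooxygenase that starts removal of the C4 methyl groups (chr8:67196936-67212589, minus strand), stood at 163 and 164 FPKM in B16-F1, at 77.8 and 76.5 in B16-F1R2 and at 112 and 117 in B16-F1R2L. B16-F1R2 thus stood at 47.0% and B16-F1R2L at 70.0% of the B16-F1 mean, and the log2 fold change in B16-F1R2 was -1.09 (SE 0.041, adjusted p = 6.1e-06). Nsdhl, which acts after it in the same demethylation (chrX:70163896-70203853, plus strand), stood at 44.0 and 46.2 FPKM in B16-F1, at 20.4 and 21.9 in B16-F1R2 and at 24.2 and 23.4 in B16-F1R2L. It fell by 1.09 (SE 0.056, adjusted p = 2.1e-05). Hsd17b7, the 3-ketosteroid reductase that completes it, stood at 8.31 and 8.39 FPKM in B16-F1, at 4.45 and 5.09 in B16-F1R2 and at 4.31 and 4.42 in B16-F1R2L. Its B16-F1R2L libraries were the lowest, and its log2 fold change in B16-F1R2 was -0.80 (SE 0.089, adjusted p = 0.00052).

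Cyp51, the lanosterol 14-demethylase (chr5:4081145-4104746, minus strand), stood at 78.1 and 80.2 FPKM in B16-F1, at 38.4 and 37.9 in B16-F1R2 and at 46.7 and 48.3 in B16-F1R2L. The lines did not overlap and the log2 fold change in B16-F1R2 was -1.05 (SE 0.042, adjusted p = 7.8e-06). Sqle, squalene epoxidase (chr15:59146632-59162747, plus strand), stood at 71.7 and 73.8 FPKM in B16-F1, at 42.5 and 43.3 in B16-F1R2 and at 57.9 and 56.1 in B16-F1R2L. It fell by 0.76 in B16-F1R2 (SE 0.042, adjusted p = 3.0e-05), to 58.9% of the B16-F1 mean. Lss, lanosterol synthase, stood at 41.2 and 39.9 FPKM in B16-F1, at 24.2 and 26.0 in B16-F1R2 and at 28.7 and 26.8 in B16-F1R2L, a log2 fold change of -0.69 in B16-F1R2 (SE 0.058, adjusted p = 0.00016).

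The last steps were lower as well. Sc5d, the sterol C5-desaturase, stood at 30.9 and 33.2 FPKM in B16-F1, at 19.4 and 19.1 in B16-F1R2 and at 22.4 and 20.7 in B16-F1R2L, with a log2 fold change of -0.73 (SE 0.061, adjusted p = 0.00015). Dhcr7, which makes cholesterol from 7-dehydrocholesterol, stood at 90.8 and 90.8 FPKM in B16-F1, at 59.6 and 57.7 in B16-F1R2 and at 68.4 and 62.4 in B16-F1R2L, with a log2 fold change of -0.63 (SE 0.054, adjusted p = 0.00017). Both were without overlap between the 3 lines. Fdft1, squalene synthase, and Ebp, the sterol isomerase, fell by 0.40 and 0.44 in B16-F1R2 (adjusted p = 0.0014 and 0.00081).

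Summed over the 16 tested genes of the sterol steps, the level stood at 1170 and 1184 FPKM in B16-F1, at 632 and 623 in B16-F1R2 and at 754 and 727 in B16-F1R2L. The 11 fatty acid and glycerolipid genes summed to 1261 and 1264 FPKM in the parental line, to 971 and 990.1 in B16-F1R2 and to 968 and 940.1 in B16-F1R2L. Single genes weigh in these sums: in B16-F1, Fdps made up 384 and 383 FPKM of the sterol sum and Scd2 575 and 572 of the other. B16-F1 was above the other lines in both sums, and on the FPKM as deposited B16-F1R2L lay above B16-F1R2 in the sterol sum only. The FPKM of whole libraries also summed to less in B16-F1R2L than in B16-F1R2, and these sums were not rescaled.

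**Figure D3:**
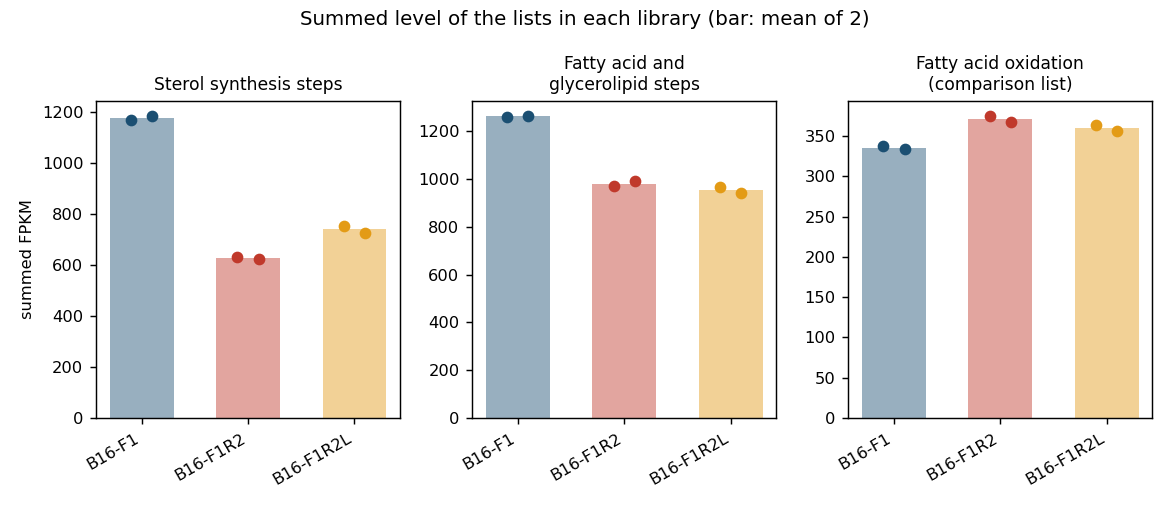
Summed FPKM of the 16 tested sterol synthesis genes, the 11 fatty acid and glycerolipid genes and, for comparison, 9 fatty acid oxidation genes; points are libraries and bars the mean of 2, and each panel has its own axis from 0. The sterol sum is 1170 and 1184 FPKM for B16-F1 against 632 and 623 for B16-F1R2, and the fatty acid oxidation sum 338 and 334 against 375 and 368, a rise carried by Hadhb, without which it is 245 and 237 against 224 and 226. Hmgcs1, at 0 throughout, adds nothing to the sterol sum.

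Of the 5 genes of SREBP control and sterol transport, 3 were lower in B16-F1R2 and 1 higher, beside 27.2% and 28.2% of all genes. The higher call did not hold under all alternatives. Insig1, which retains SCAP and SREBP in the endoplasmic reticulum and is itself an SREBP target (chr5:28397952-28405201, plus strand), stood at 113 and 109.7 FPKM in B16-F1, at 60.2 and 62.8 in B16-F1R2 and at 71.0 and 72.3 in B16-F1R2L. It was lowest in B16-F1R2, at 55.3% of the B16-F1 mean (log2 fold change -0.85, SE 0.043, adjusted p = 1.9e-05). Srebf2, from which SREBP2 is made (chr15:81977696-82035806, plus strand), stood at 102 and 101 FPKM in B16-F1, at 77.3 and 79.1 in B16-F1R2 and at 91.7 and 83.4 in B16-F1R2L. The 3 lines did not overlap, and it fell by 0.37 in B16-F1R2 (SE 0.054, adjusted p = 0.0015).

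Srebf1, from which SREBP1 is made (chr11:60012591-60036083, minus strand), stood at 40.8 and 43.6 FPKM in B16-F1, at 48.5 and 48.7 in B16-F1R2 and at 44.6 and 39.6 in B16-F1R2L. It was the single gene of the 32 that rose in B16-F1R2 (log2 fold change 0.20, SE 0.068, adjusted p = 0.041), and this call was lost in 8 of 16 alternatives. The table does not separate its isoforms. Scap stood at 38.6 and 39.7 FPKM in B16-F1, at 34.0 and 37.2 in B16-F1R2 and at 39.9 and 36.6 in B16-F1R2L. Its B16-F1R2L libraries spanned both B16-F1 libraries, and the difference in B16-F1R2 was -0.14 (SE 0.065, adjusted p = 0.12). Stard4, a cytosolic sterol transfer protein, fell by 0.37 (adjusted p = 0.0026).

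Over all genes, 27.2% were lower in B16-F1R2. Of the 11 fatty acid and glycerolipid genes, 9 were, with a median of -0.30, beside 15 of 16 tested sterol genes with a median of -0.75. The difference between these 2 lists was not tested. Acly, the ATP citrate lyase that makes cytosolic acetyl-CoA for both routes, stood at 163 and 163 FPKM in B16-F1, at 110.4 and 110.0 in B16-F1R2 and at 111 and 103 in B16-F1R2L. It fell by 0.56 in B16-F1R2 (SE 0.046, adjusted p = 0.00014), with no overlap. Fasn, fatty acid synthase (chr11:120667254-120685492, minus strand), stood at 139.8 and 146 FPKM in B16-F1, at 99.9 and 108 in B16-F1R2 and at 90.2 and 76.5 in B16-F1R2L. Both B16-F1R2L libraries were the lowest, and Fasn fell by 0.46 in B16-F1R2 (SE 0.084, adjusted p = 0.0039). Acaca, acetyl-CoA carboxylase, changed by -0.16 (adjusted p = 0.041), and Acss2, acetyl-CoA synthetase, by 0.07 (adjusted p = 0.62). Of the stretches of Acaca, 60.2% occur elsewhere.

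Among the 6 elongases and desaturases, 5 were lower in B16-F1R2, against 27.2% of all genes, within a range of -0.38 to -0.21. None reached a fall of 0.5, which 10.6% of all genes did. Scd2, a stearoyl-CoA desaturase and the most abundant of the 32 tested genes per length, had 575 and 572 FPKM in B16-F1, compared with 437 and 449 for B16-F1R2 (log2 fold change -0.37, adjusted p = 0.00050). The related Scd1 changed by -0.38 (adjusted p = 0.00057). Elovl6, which elongates palmitate, fell by 0.30, and the desaturases of polyunsaturated fatty acids Fads1 and Fads2 by 0.22 and 0.21, all past the threshold. Elovl5 changed by -0.18 and did not pass the test (adjusted p = 0.051).

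Lpin1, a phosphatidate phosphatase that makes diacylglycerol and also acts as a transcriptional coregulator (chr12:16542475-16596576, minus strand), was the least abundant of the 32 per length, at 4.01 and 4.33 FPKM in B16-F1, at 2.13 and 1.93 in B16-F1R2 and at 2.27 and 2.18 in B16-F1R2L. Its log2 fold change in B16-F1R2 was -1.01 (SE 0.11, adjusted p = 0.00050), and B16-F1R2 stood at 48.6% of the B16-F1 mean.

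**Figure D4:**
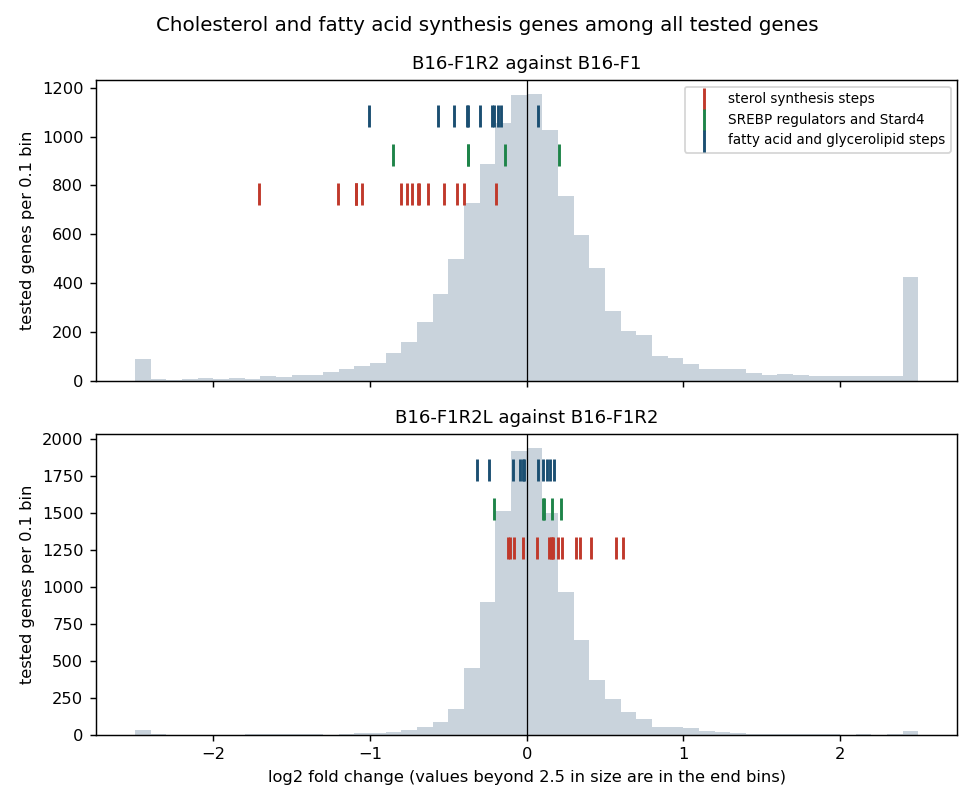
Histogram of log2 fold changes of all 11379 tested genes in bins of 0.1 (grey), with the 32 genes as vertical ticks by group, for B16-F1R2 against B16-F1 (top) and B16-F1R2L against B16-F1R2 (bottom). The height of a tick has no meaning, and values beyond 2.5 in size are in the end bins. In the top panel the ticks have a median of -0.49 and all genes one of 0.0046, and in the bottom panel 0.12 and 0.022.

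B16-F1R2L was then compared with B16-F1R2, which asks how the line from a lung metastasis differs from the lymph node line. Of the 32 genes, 9 were higher (background 12.1%) and 2 lower (background 10.5%) in B16-F1R2L, and 21 had a positive log2 fold change, with a median of 0.12 against 0.022 over all genes tested. The 9 were Mvd, Fdps, Fdft1, Sqle, Cyp51, Tm7sf2, Msmo1, Insig1 and Scd1. Of these 9, 7 belong to the sterol steps, which hold 16 of the 32 tested genes. The 2 lower genes were Fasn and Elovl6, both in fatty acid synthesis, and 0 genes fell by 0.5 or more (background 1.25%). The libraries did not overlap for 18 genes that were higher, against 35.9% of all genes, and for 7 that were lower, against 29.2%.

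The largest of these rises were in sterol enzymes. Tm7sf2 rose by 0.62 (SE 0.089, adjusted p = 0.0088), Msmo1 by 0.57 (SE 0.041, adjusted p = 0.0014), Sqle by 0.41 (SE 0.042, adjusted p = 0.0040) and Cyp51 by 0.31 (SE 0.042, adjusted p = 0.0081). These 4 were called under the same 16 alternatives, and none reached a change of 1. Fdft1 rose by 0.34 (adjusted p = 0.012) and Insig1 by 0.22 (adjusted p = 0.018), lost in 2 and 3 of 16 alternatives. The calls on Mvd, Fdps and Scd1 were lost in 12, 10 and 11 of the 16, and those on Fasn (log2 fold change -0.32, adjusted p = 0.040) and Elovl6 (-0.24, adjusted p = 0.036) in 11 and 10.

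Leaving out 1 library moved the 9 higher calls to 4 without B16-F1R2 replicate 1, 5 without B16-F1R2 replicate 2 and 5 without B16-F1R2L replicate 2. The FPKM of B16-F1R2L summed to 618618 and 596657, below the 672794 and 637683 of B16-F1R2. Rescaling each library to an equal sum gave all genes a median of 0.13 in place of 0.022 and the 32 genes one of 0.23 in place of 0.12. On that scale 15 of the 32 were higher, against 18.3% of all genes, and 0 lower, against 4.30%.

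Between B16-F1R2L and B16-F1, 26 of the 32 genes were lower (background 27.1%) and 0 higher (background 29.5%), with a median of -0.53 against 0.017 over all genes. A fall of at least 0.5 was found for 17, against 9.56% of all genes, and a fall of at least 1 for Tm7sf2 alone, 1 of the 32 against 2.28%. Both libraries of B16-F1R2L lay below both of B16-F1 for 28 genes, against 39.1% of all genes, and above them for 0, against 41.7%. Of the 26, 20 were called under all 16 alternatives, and Lpin1 under the 15 that tested it. Tm7sf2 stood at 46.4% of its B16-F1 mean, and Fasn at 58.3%, with a log2 fold change of -0.78 (SE 0.084, adjusted p = 0.00043). Fdft1 was back to 95.6% of the B16-F1 mean, a log2 fold change of -0.07 that did not pass the test (adjusted p = 0.36).

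The levels fell in the order B16-F1, B16-F1R2L, B16-F1R2, with both libraries of each line clear of the next, for 17 of the 32 genes, where 9.77% of all tested genes showed that order. These were Mvd, Idi1, Fdps, Sqle, Lss, Cyp51, Tm7sf2, Msmo1, Nsdhl, Sc5d, Dhcr7, Srebf2, Insig1, Stard4, Fads1, Scd1 and Lpin1. Of these 17, 8 passed the test between B16-F1R2 and B16-F1R2L, and 9 did not: Idi1, Lss, Nsdhl, Sc5d, Dhcr7, Srebf2, Stard4, Fads1 and Lpin1 (adjusted p = 0.31, 0.12, 0.073, 0.11, 0.086, 0.077, 0.23, 0.058 and 0.43). The order B16-F1, B16-F1R2, B16-F1R2L was found in the same way for 6 genes, Hsd17b7, Ebp, Fasn, Elovl6, Fads2 and Scd2, against 8.48% of all tested genes, and of these Fasn and Elovl6 passed the test between the variant lines. For Mvk and Acly, which stand in neither order, that step did not pass the test either (adjusted p = 0.71 and 0.50).

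Genes of lipid metabolism outside the 33 were taken from lists and are given by counts for B16-F1R2 against B16-F1. In the remainder of sterol synthesis and its control, 5 of 8 tested genes were lower, against 27.2% of all genes, and 0 higher, against 28.2%. Acat2, the cytosolic acetoacetyl-CoA thiolase that supplies the first step, stood at 53.0 and 53.5 FPKM in B16-F1, at 25.0 and 25.7 in B16-F1R2 and at 27.0 and 25.0 in B16-F1R2L (log2 fold change -1.07, adjusted p = 1.8e-05). Insig2, the related retention protein, fell by 0.60 (adjusted p = 0.00029) and was 0.26 higher in B16-F1R2L than in B16-F1R2 (adjusted p = 0.029).

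Sterol export and uptake were covered by separate lists. Of 6 tested genes of sterol export and the LXR receptors, the 5 that reached 1 FPKM in every line were lower, and among genes of uptake, transport and esterification 5 of 7 were lower and 0 higher, beside 27.2% lower and 28.2% higher over all genes. Of the other two, Lipa had a log2 fold change of 0.07 (adjusted p = 0.27) and Osbp of -0.18 (adjusted p = 0.13). Abca1, the exporter of cholesterol to lipoproteins, was low in every library, at 1.08 and 1.23 FPKM in B16-F1, at 0.165 and 0.248 in B16-F1R2 and at 0.0849 and 0.102 in B16-F1R2L. It entered the test only through B16-F1, where it is high, so no fold change is given. Stard3, a sterol transfer protein of late endosomes, had 27.0 and 27.3 FPKM in the parental line against 13.9 and 15.1 in B16-F1R2 (log2 fold change -0.90, adjusted p = 0.00017).

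In the supply and elongation of fatty acids, 6 of the 10 genes that reached 1 FPKM in every line were lower and 2 higher, and in glycerolipid synthesis 1 of 6 was lower and 1 higher, beside 27.2% lower and 28.2% higher over all genes. Elovl1, an elongase of very long chains, had 66.1 and 63.1 FPKM in B16-F1, compared with 35.3 and 36.0 for B16-F1R2 (log2 fold change -0.85, adjusted p = 2.7e-05). The 2 higher genes were Elovl4 (log2 fold change 0.80, adjusted p = 0.0018) and Acacb (0.77, adjusted p = 0.0016). Acacb was low, at 1.24 and 1.25 FPKM in B16-F1, at 2.13 and 2.25 in B16-F1R2 and at 3.77 and 3.70 in B16-F1R2L. Of the family of Lpin1, Lpin2 fell by 0.60 (adjusted p = 0.00071), while Lpin3 stood at 0.158 and 0.189 FPKM in the parental line beside 2.55 and 2.00 in B16-F1R2. Dgat2, which makes triglyceride, stood at 0.716 and 0.797 FPKM beside 2.78 and 1.91. Both were higher in each variant library than in B16-F1, but they entered the test only through the variant lines, so no fold change is given. Of 8 tested fatty acid oxidation genes, 3 were higher and 3 lower, counts near the 28.2% and 27.2% of all genes, with a median of 0.032, and the largest difference was in Ppargc1a (log2 fold change 1.24, adjusted p = 9.5e-05), a coactivator of mitochondrial genes.

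**Figure D5:**
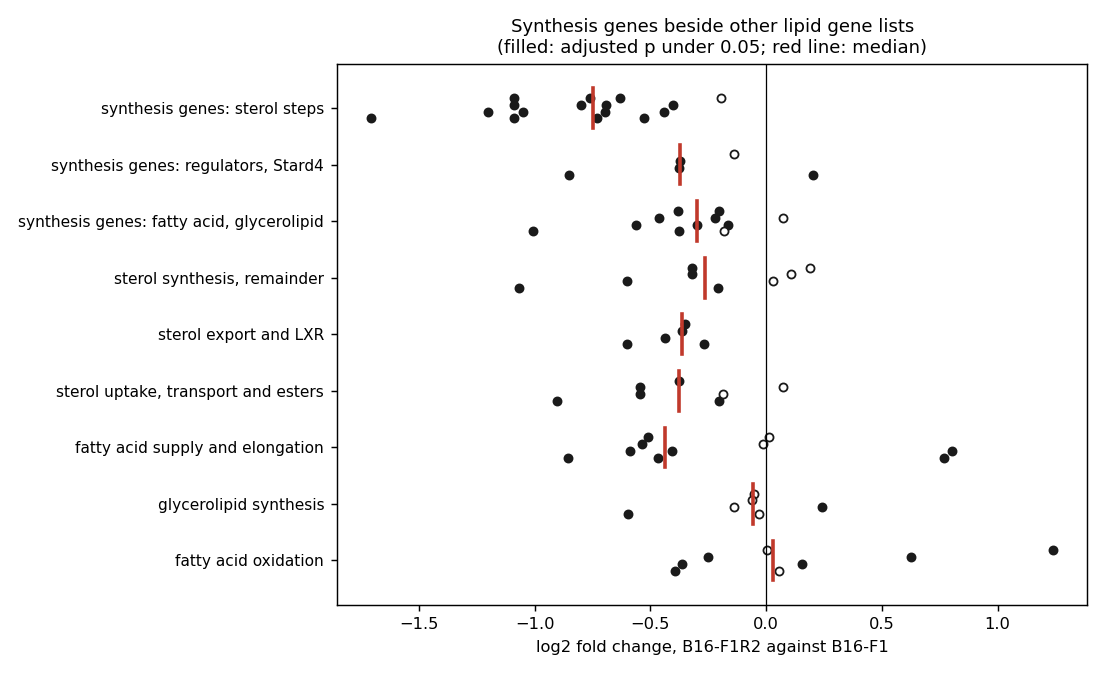
Log2 fold changes in B16-F1R2 against B16-F1 of the genes in each lipid list, each point 1 tested gene (filled when past the threshold) and each red line the median of the list. Abca1, Thrsp, Lpin3 and Dgat2, which stayed under 1 FPKM in a line, are left out of points and medians. The sterol steps have the lowest median (-0.75), the fatty acid and glycerolipid steps -0.30, and fatty acid oxidation lies near 0 (0.032).

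Markers of the cells were read in the same libraries. Melanocyte genes were lower in B16-F1R2 for 6 of 7 (27.2% of all genes were; median -0.73), their sum going from 14970 and 15007 FPKM to 8125 and 7909, and to 8933 and 8924 in B16-F1R2L, a sum carried by the abundant pigment genes. Tyr, the key enzyme of melanin, had a log2 fold change of -3.70 (adjusted p = 3.7e-07), and Mitf, the lineage factor, of -0.15 (adjusted p = 0.11). Mitf was highest in B16-F1R2L, 0.55 above B16-F1R2 on the log2 scale (adjusted p = 0.0066) and 0.40 above B16-F1 (adjusted p = 0.0032). The part of this in the synthesis genes was not tested, and in bulk libraries fewer cells of a type and less RNA per cell cannot be told apart.

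The 5 proliferation genes summed to between 807 and 892 FPKM in the 6 libraries. Against B16-F1, 1 of them was higher in B16-F1R2 (Mki67, log2 fold change 0.55) and 0 lower, beside 28.2% and 27.2% of all genes. In B16-F1R2L against B16-F1, 1 was higher and 3 lower (Pcna -0.18, Mcm2 -0.23 and Ccnb1 -0.13), beside 29.5% and 27.1% of all genes. Summed adipocyte, hepatocyte, fibroblast and lung epithelium markers stayed at or under 0.364 FPKM each in every library, with 2 of 4, 1 of 3, 2 of 4 and 2 of 4 of their genes listed at 0 throughout, so these sums cannot show that such cells were lacking. The leukocyte list summed to 1.02 and 1.82 FPKM (B16-F1), 13.8 and 14.3 (B16-F1R2) and 18.2 and 18.7 (B16-F1R2L). This was mostly Cd79a, which was at 0 and 0.0593 FPKM in B16-F1 and at 12.4 or more in the other lines. Ptprc, which leukocytes share, and Cd3e, of the T cell receptor, were listed at 0 in every library, and like that of Hmgcs1 such a 0 is not read as absence. Of the endothelial markers, Cdh5 and Lyve1 were listed at 0, and the other 2 were low, stayed under 1 FPKM in a line and are given by value alone. Pecam1 was listed at 0 in both B16-F1 libraries, at 0.758 and 0.752 FPKM in B16-F1R2 and at 1.09 and 1.26 in B16-F1R2L, and Prox1 stood at 1.66 and 1.63, at 0.790 and 0.969, and at 1.16 and 1.12.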

How the data were processed

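Polyadenylated RNA of the 3 lines, in 2 libraries each, was sequenced in single-end reads. The authors deposited 1 table of FPKM values for all libraries. The submitters' processing notes name FastQC 0.10.1, TopHat2 2.0.10, Bowtie 1.0.0 and SAMtools 0.1.1.9, and also Cuffnorm and DESeq2 without a version, and the build is mm9. The gene annotation is not given in the sources used here. The deposited FPKM are not counts, so no count test and no counting interval was computed, and depth is an estimate from the lowest values of genes with 1 transcript.

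From the FPKM, log2(FPKM + 0.1) was fitted with limma 3.58.1 in R 4.3.3 (eBayes with a trend) over all 6 libraries, for genes that reached 1 FPKM in 2 or more libraries, adjusted by Benjamini-Hochberg and called at 0.05. The fit was tested on simulated data. Groups and replicate numbers came from the sample labels. Positions and stretches of 50 bases shared with other places came from the NCBIM37 annotation and genome. Alternatives were pseudocounts of 1 and 0.01, filters of none and 5 FPKM, 3 scalings, no trend, only the 4 libraries compared, a replicate block, a minimum change of 1, and each library left out.

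The genes and lists were chosen with earlier results of these data known. Full values are given for genes called with a log2 fold change of 0.5 or more in size in B16-F1R2 against B16-F1 or B16-F1R2L against B16-F1R2, and for Srebf1, Srebf2, Insig1, Scap and Fasn; the others are given by range and count, and other lists by at most 4 examples. Columns of other samples numbered 0. The study's proteomic and qPCR data were not analysed here.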

Additional observations from a re-analysis of the deposited data

How the results depend on the processing

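Of the values per gene under 16 alternatives (all but the minimum change of 1), 485 of 511 for B16-F1R2 against B16-F1 kept their direction and side of the threshold, as did 425 of 511 for B16-F1R2L against B16-F1R2 and 481 of 511 for B16-F1R2L against B16-F1. Lpin1 was not tested under the filter of 5 FPKM. For B16-F1R2 against B16-F1, 0 of the 32 genes passed as higher without a filter, with median ratios, without a trend, with the replicate block and with a minimum change of 1, and 7 were lower with that minimum, while leaving out 1 library gave 0 to 1 higher and 25 to 29 lower. In B16-F1R2L against B16-F1R2, the higher genes numbered 15 when rescaled to an equal sum, 5 without a trend and 0 with the minimum change of 1 (4 to 6 with 1 library left out), and the lower genes 0 without a filter, when rescaled, with only the 4 libraries, with the replicate block and with the minimum, and 1 with quantile normalization and without a trend (0 to 2). In B16-F1R2L against B16-F1, 1 gene was lower with the minimum (22 to 26 with 1 library left out). Medians moved to 0.23 (rescaled) in B16-F1R2L against B16-F1R2, with 0.098 to 0.16 when 1 library was left out, to -0.42 (rescaled) and -0.44 (quantile) in B16-F1R2L against B16-F1, and to -0.45 (quantile) in B16-F1R2 against B16-F1. The cause was not tested, except that a higher minimum leaves fewer calls by construction.

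Signs reversed only for genes that were not called in the comparison. Rescaling to an equal sum, which moves the median of all genes to 0.13 in B16-F1R2L against B16-F1R2 and the share of higher calls from 53.7% to 81.0%, gave Mvk 0.082, Pmvk 0.029, Ebp 0.0025, Acly 0.063, Acaca 0.092, Fads2 0.021 and Scd2 0.082 there. In B16-F1R2L against B16-F1, where the median moves to 0.12 and the share from 52.1% to 66.6%, it gave Fdft1 0.037, Srebf1 0.098, Scap 0.068 and Fads1 0.027. Quantile normalization gave Acly 0.0030, Scd2 0.095 and Lpin1 -0.061 in B16-F1R2L against B16-F1R2, and Fdft1 0.0018, Srebf1 0.070 and Scap 0.028 in B16-F1R2L against B16-F1. Leaving out each library in turn gave, in B16-F1R2 against B16-F1, Acss2 from -0.044 to 0.19. In B16-F1R2L against B16-F1R2 it gave Mvk from -0.057 to 0.0035, Pmvk from -0.17 to 0.016, Acss2 from -0.024 to 0.23, Acly from -0.095 to 0.0042, Acaca from -0.059 to 0.026 and Elovl5 from -0.011 to 0.15, the reversed ends being without B16-F1R2L replicate 2 (for Acaca B16-F1R2 replicate 2 as well). In B16-F1R2L against B16-F1 it gave Srebf1 from -0.091 to 0.081 (0.044 without B16-F1 replicate 2) and Scap from -0.097 to 0.028. The cause was not tested.

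Differences between replicates showed little shared shift between lines: they correlated by 0.052, -0.10 and 0.079 over genes. This cannot tell whether libraries of the same number were handled together. With the replicate block, the calls were 0 higher and 26 lower for B16-F1R2 against B16-F1, 7 higher and 0 lower in B16-F1R2L against B16-F1R2, and 0 and 26 in B16-F1R2L against B16-F1, and calls over all genes went from 6305 to 6181, 2568 to 2321 and 6447 to 6330. A crossed pairing for B16-F1R2L against B16-F1, added after seeing the data, gave 0 and 26. Leaving out the 5 genes with shared stretches of over 20% (Idi1, Fdps, Acaca, Insig1, Fdft1), also added after seeing the data, gave 1 higher and 22 lower (median -0.46), 6 higher and 2 lower (0.11), and 0 and 22 (-0.52).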
